A study of Mus musculus with 8 samples.

Results

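Enteroendocrine cells are scattered hormone-secreting cells of the gut epithelium. The genes described here encode their main peptide hormones, the chromogranins of their secretory granules and the enzyme that starts serotonin synthesis. The set held 10 genes of the 55487 in the table, namely Chga, Chgb, Cck, Gcg, Pyy, Nts, Sct, Tph1, Gip and Sst, each found by its symbol. They were measured in ileum by bulk strand-specific poly(A) RNA-seq after irinotecan, a topoisomerase I inhibitor that injures the intestine. The groups were 4 libraries from Gsdme-deficient mice (Gsdme-/-, here Gsdme_KO, in columns headed KO4, KO5, KO7 and KO8) and 4 from wild-type mice (Gsdme+/+, here WT, in columns headed WT3, WT5, WT7 and WT8). Gsdme encodes gasdermin E, a protein that forms pores in membranes. The sources used here do not give the dose and time of irinotecan, the strain, sex and age of the mice or the kind of Gsdme allele. No untreated mice were analysed here, so every value compares genotypes under treatment.

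Enteroendocrine cells arise from crypt progenitors through the transcription factor NEUROG3, followed by NEUROD1 and others, and settle as subtypes whose hormones change along the gut. Cells that make glucagon-like peptides, peptide YY and neurotensin are most frequent in the ileum and colon, whereas those that make cholecystokinin, secretin and GIP are typical of the duodenum and jejunum. Enterochromaffin cells release serotonin, which acts on gut motility and on the nerves that carry nausea.

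RefSeq promoter entries (GRCm38.p6) were found for 10 of the 10 genes, 12 entries in all. The 250 bases before the annotated start are shown for Chga and Gcg, which had lower means in Gsdme_KO, and for Cck and Gip, which had higher means there. Capitals mark matches to CANNTG, the E-box bound by NEUROD1 and other basic helix-loop-helix factors, and to GATAA on either strand, the core bound by GATA factors. No marked match overlaps another. The windows are chr12:102554691-102554940 (plus strand), chr2:62483654-62483903 (minus strand), chr9:121495695-121495944 (minus strand) and chr11:96024295-96024544 (plus strand), in the order printed, each read 5′ to 3′ along its gene.
Chga: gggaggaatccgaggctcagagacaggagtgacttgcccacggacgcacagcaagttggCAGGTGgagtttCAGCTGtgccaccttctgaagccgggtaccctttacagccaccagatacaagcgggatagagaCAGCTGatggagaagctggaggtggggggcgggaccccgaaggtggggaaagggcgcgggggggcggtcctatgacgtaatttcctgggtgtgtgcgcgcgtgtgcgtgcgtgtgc
Gcg: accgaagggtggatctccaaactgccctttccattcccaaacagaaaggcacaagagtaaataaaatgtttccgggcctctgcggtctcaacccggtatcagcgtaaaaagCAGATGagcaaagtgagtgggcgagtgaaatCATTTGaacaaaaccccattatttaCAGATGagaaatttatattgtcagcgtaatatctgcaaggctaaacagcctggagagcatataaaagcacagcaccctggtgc
Cck: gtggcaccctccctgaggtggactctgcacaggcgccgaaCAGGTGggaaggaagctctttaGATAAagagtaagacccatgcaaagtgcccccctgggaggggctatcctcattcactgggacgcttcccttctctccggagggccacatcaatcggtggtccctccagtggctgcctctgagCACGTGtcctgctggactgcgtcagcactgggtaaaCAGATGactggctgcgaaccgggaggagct
Gip: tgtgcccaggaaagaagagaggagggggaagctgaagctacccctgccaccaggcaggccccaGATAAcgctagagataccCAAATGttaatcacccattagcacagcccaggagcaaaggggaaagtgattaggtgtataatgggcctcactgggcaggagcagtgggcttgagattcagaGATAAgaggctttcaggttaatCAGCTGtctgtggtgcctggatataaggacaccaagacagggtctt
CANNTG was found 3 times in the Chga, Gcg and Cck windows and 2 times in the Gip window, and 66.2% of all 32851 promoter windows of this length held it at least 1 time. GATAA was found 2 times for Gip, 1 time for Cck and in neither Chga nor Gcg, against 22.6% of all windows. It did not follow the direction of the means among the other members. Nts, with a lower mean in Gsdme_KO, also held it 1 time, and Sst, with a higher mean, did not. The cyclic AMP response element TGACGTCA, a palindrome, was found in the Chgb and Sst windows and in none of the other 10 entries, against 1.55% of all windows. Only exact matches were sought, so a near match, such as TGACGTAA in the Chga window, 1 base from the palindrome, was not counted. A match is a description of these letters and not a measured site.

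All 10 genes were detected in every library and passed the filter, a mean of at least 10 normalized counts. Each is protein coding, and its annotated span overlaps no other gene in GENCODE M21 (GRCm38). Values below are normalized counts, that is, reads divided by 1 size factor per library, unless another scale is named. The libraries held 15617407 to 23437343 reads in genes. Members other than Gip and Tph1 had 91 (Cck) to 3119 (Gcg) recovered reads per library, Tph1 had 42 to 166 and Gip had 1 to 36. In bulk tissue, fewer cells of a type and less RNA per cell cannot be told apart.

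Gsdme had 113 to 634 normalized counts in Gsdme_KO against 2169 to 3376 in WT (log2 difference -3.32, two-sided exact permutation p = 0.0286, the smallest that 70 assignments allow). Adjusted over all genes, the p of Gsdme was 0.786 by limma, 0.813 by edgeR and 2.07e-07 by DESeq2, so that DESeq2 alone called it lower. KO4 and KO5 stood apart in markers of other cells. The summed level of 11 B cell and follicle markers reached 10541 (KO4) and 6062 (KO5), while KO7 and KO8 had 346 and 267 and WT ran from 230.3 to 357. The summed level of 12 mature enterocyte markers was 120769 (KO4) and 207710.3 (KO5), while KO7 and KO8 had 488620.4 and 365197 and WT ran from 269645 to 474232. Summed pan-epithelial markers (11 genes) ran from 292724 to 328154 in Gsdme_KO and from 286282 to 345135 in WT. Fabp6 and Slc10a2, bile acid genes that define ileal enterocytes, were at 7983 or above in every library, and the colonic homeobox genes Hoxb13 and Hoxd13 at 1.11 or below. Whether these differences between libraries bear on the hormone genes was not tested.

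Per exon length, the distal hormone genes Nts and Gcg had the highest means in each genotype. Pyy, also distal, lay below Sst in each and below Sct in WT. In Gsdme_KO the order of mean normalized counts per kb was Nts (1042), Gcg (951), Sst (903), Pyy (750.0), Sct (631), Chgb (400.3), Chga (187), Cck (118), Gip (23.1) and Tph1 (12.3). In WT it was Gcg (1338), Nts (1307), Sst (833), Sct (761), Pyy (731), Chgb (520.2), Chga (233), Cck (84.6), Tph1 (14.6) and Gip (10.8). Neighbours in the order had overlapping ranges over the 4 libraries in 7 of 9 places in Gsdme_KO, the exceptions being Chgb above Chga and Cck above Gip. In WT they overlapped in 5 of 9 places, with Nts above Sst, Chgb above Chga, Chga above Cck and Cck above Tph1 apart. The duodenal and jejunal hormone genes Cck and Gip were thus far below Gcg and Nts in each genotype, while Sct was near Pyy.

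**Figure D1:**
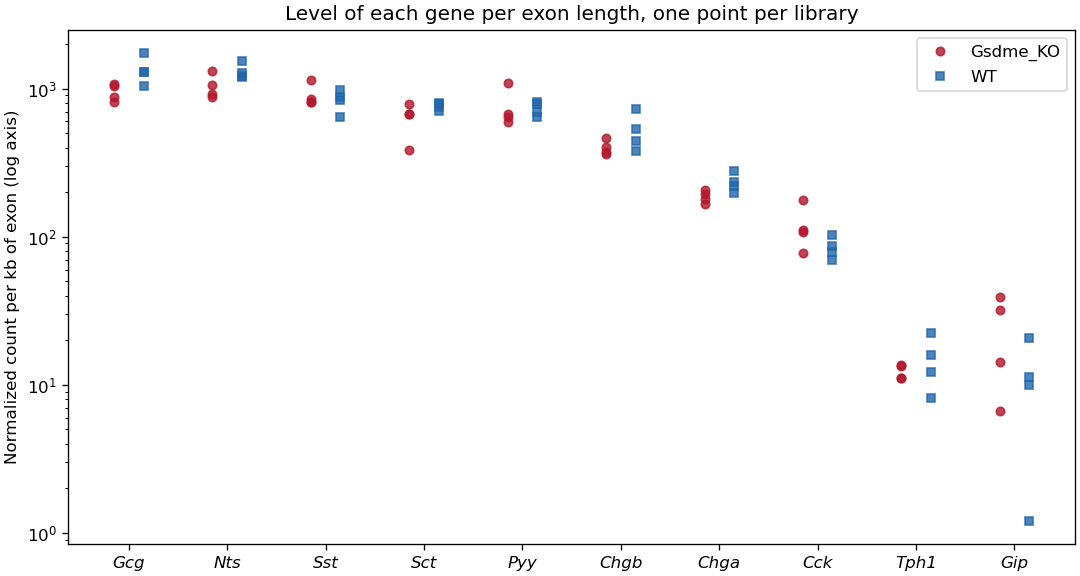
Level of each gene as normalized counts per kb of exon (y axis, logarithmic) in the 4 Gsdme_KO libraries (red circles) and the 4 WT libraries (blue squares), genes ordered by WT mean. Gcg, Nts, Sst, Sct and Pyy lie highest and Tph1 and Gip lowest, with Gip spread most among libraries.

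None of the 10 genes was called between genotypes by limma at an adjusted p under 0.05, where 0.00612% of the 16352 genes tested were called higher in Gsdme_KO and 0% lower. At an unadjusted limma p under 0.05, 3 members had lower means in Gsdme_KO (Gcg, Chga and Nts) and 0 had higher ones, against 1.77% lower and 2.61% higher over all genes tested. The edgeR test on recovered reads called 0 members, with the same shares of all genes called as limma. DESeq2, which gave Gip no adjusted p, called 0 members, against 0.0489% of all genes higher and 0.00612% lower. Each of these 2 tests also had 3 members, all lower, at an unadjusted p under 0.05, a level that 5.956% of all genes passed by edgeR and 6.929% by DESeq2 in either direction, against 4.38% by limma. Of the 10 members, 7 had a negative log2 fold change, against 49.4% of all genes tested. The median log2 fold change of the members was -0.24, beside 0.00 over all genes tested. In 0 of the 10 did the 4 libraries of each genotype lie apart, against 2.5% of all genes tested (1.31% with Gsdme_KO higher and 1.19% lower). Each log2 fold change is Gsdme_KO over WT after adding 1 to the normalized count, which understates the change of low genes.

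**Figure D2:**
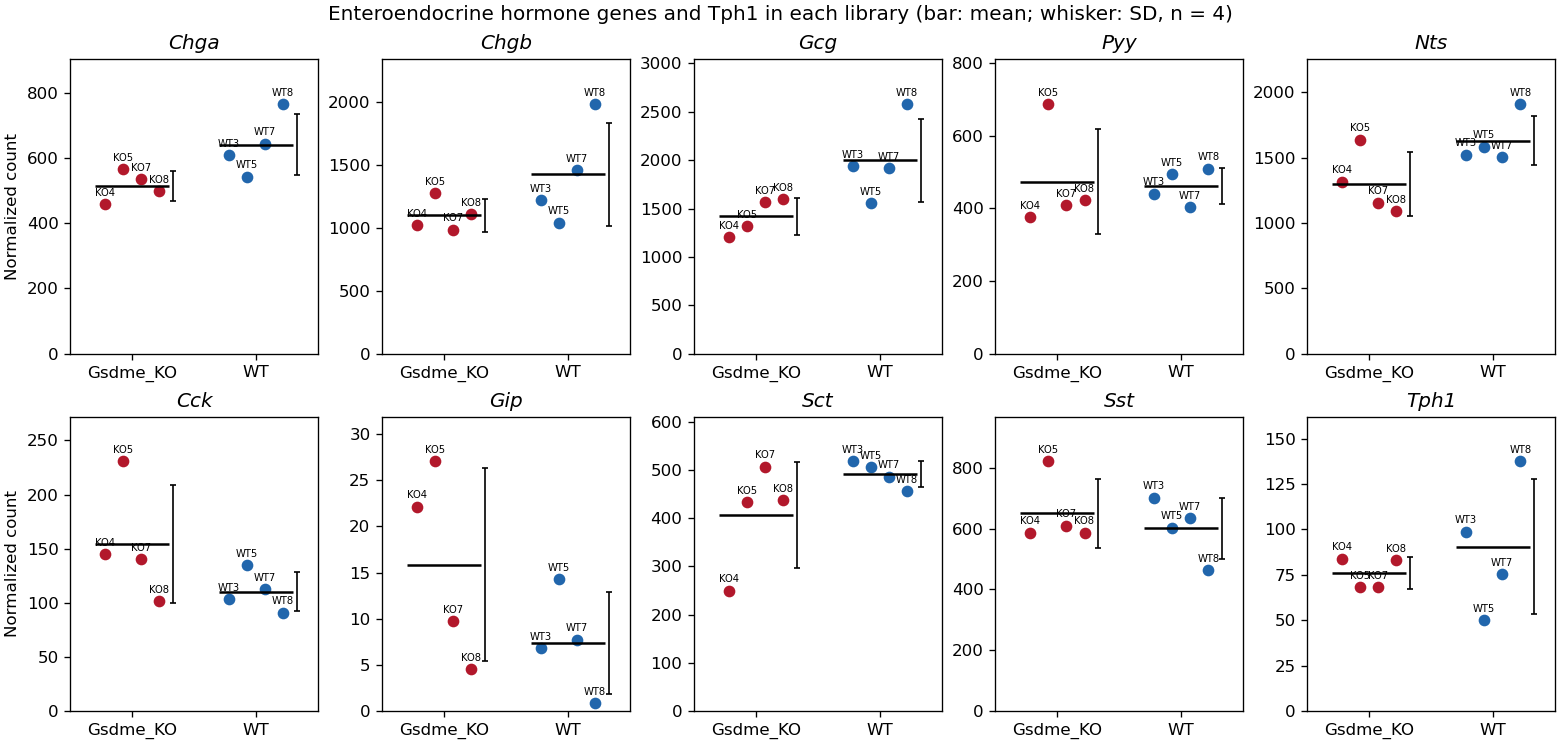
Normalized counts (y axis, from 0) of each gene in every library, Gsdme_KO in red and WT in blue, with the mean as a bar and the SD (n = 4) as a whisker. WT8 is the highest or lowest WT library in all 10 panels, and KO5 is the highest Gsdme_KO library in 7.

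The chromogranins CHGA and CHGB are acidic proteins that pack hormones into dense-core granules, and Chga is the usual marker of enteroendocrine cells as a whole. Chga (ENSMUSG00000021194, chromosome 12, 102554969 to 102565028, plus strand) had 459, 566, 536 and 498 normalized counts in KO4, KO5, KO7 and KO8, against 609, 543, 645 and 766 in WT3, WT5, WT7 and WT8. KO5 exceeded WT5, and the other 3 Gsdme_KO libraries lay below every WT library. The means were 515 ± 46.5 in Gsdme_KO and 641 ± 93.7 in WT (SD, n = 4 each), a log2 fold change of -0.31 (95% interval -0.58 to -0.03, SE 0.121, limma adjusted p = 0.849). The Gsdme_KO mean of Chga was 80.3% of that in WT. Chgb (ENSMUSG00000027350, chromosome 2, 132781278 to 132795079, plus strand) had 1020.4, 1276, 984 and 1106 normalized counts in KO4, KO5, KO7 and KO8, against 1221, 1041, 1457 and 1982 in WT3, WT5, WT7 and WT8. Values lay close together in Gsdme_KO, while WT spanned a wide range whose top was WT8. Its log2 fold change was -0.34 (SE 0.188, limma adjusted p = 0.849) with all libraries and -0.17 without WT8.

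The hormone genes typical of the distal gut were Gcg, Pyy and Nts. Gcg (ENSMUSG00000000394, chromosome 2, 62474530 to 62483650, minus strand) encodes proglucagon, from which L cells cut GLP-1, an incretin, and GLP-2, a growth factor of the mucosa. It had 1204, 1318, 1563 and 1599 normalized counts in KO4, KO5, KO7 and KO8, against 1937, 1556, 1919 and 2582 in WT3, WT5, WT7 and WT8. WT5 lay just under KO7 and KO8, and the other 3 WT libraries lay above every Gsdme_KO library. Gcg averaged 1421 ± 191 in Gsdme_KO and 1999 ± 426 in WT (SD, n = 4 each), so that its Gsdme_KO mean was 71.1% of the WT one. Its log2 fold change of -0.48 (95% interval -0.84 to -0.11, SE 0.16, limma adjusted p = 0.849) had the smallest unadjusted limma p of the members, 0.0156. Leaving out KO4 and KO5 gave a log2 fold change of -0.31 (limma adjusted p = 0.999 and 0.112 before adjustment).

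Pyy (ENSMUSG00000017311, chromosome 11, 102106676 to 102107832, minus strand) encodes peptide YY, a hormone of the same L cells that slows transit. It had 376, 687, 408 and 422 normalized counts in KO4, KO5, KO7 and KO8, against 440.3, 494, 403 and 509 in WT3, WT5, WT7 and WT8. KO5 was above every other library and KO4 below every other. The log2 fold change was -0.00 (SE 0.188, 95% interval -0.43 to 0.43, limma adjusted p = 0.999) and its sign turned with the setting, for instance to 0.0049 with TMM factors. Set beside Gcg, the ratio of Pyy to Gcg normalized counts was 0.312, 0.521, 0.261 and 0.264 in KO4, KO5, KO7 and KO8, against 0.227, 0.318, 0.21 and 0.197 in WT3, WT5, WT7 and WT8. WT5 held a ratio above KO4, KO7 and KO8, and the other 3 WT libraries lay below every Gsdme_KO library.

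Nts (ENSMUSG00000019890, chromosome 10, 102481756 to 102490486, minus strand) encodes neurotensin, an ileal peptide released in response to fat. It had 1316, 1639, 1155 and 1092 normalized counts in KO4, KO5, KO7 and KO8, against 1523, 1585, 1505 and 1911 in WT3, WT5, WT7 and WT8. KO5 lay among the WT libraries and the other 3 Gsdme_KO libraries below all of them. Nts averaged 1300.3 ± 245 in Gsdme_KO and 1631 ± 190.0 in WT (SD, n = 4 each), a log2 fold change of -0.34 (SE 0.14, 95% interval -0.66 to -0.02, limma adjusted p = 0.849). Without KO4 and KO5 the log2 fold change was -0.53 (limma adjusted p = 0.999; 0.00184 before adjustment).

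Cck and Gip, hormones of the proximal gut, had higher means in Gsdme_KO. Cck (ENSMUSG00000032532, chromosome 9, 121489824 to 121495694, minus strand) encodes cholecystokinin, which empties the gallbladder and drives pancreatic secretion. It had 145, 231, 140.1 and 101 normalized counts in KO4, KO5, KO7 and KO8, against 103, 135, 113 and 91.0 in WT3, WT5, WT7 and WT8. KO5 was highest by a wide margin, KO4 and KO7 lay just above WT5, and KO8 lay below WT3. The log2 fold change was 0.43 (SE 0.246, 95% interval -0.13 to 0.99, limma adjusted p = 0.849) with all libraries, 0.22 without KO5 and 0.12 without KO4 and KO5.

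Gip (ENSMUSG00000014351, chromosome 11, 96024545 to 96030831, plus strand) encodes the incretin of K cells and was the lowest member in raw counts. It had 22.1, 27.0, 9.75 and 4.56 normalized counts in KO4, KO5, KO7 and KO8, against 6.81, 14.3, 7.74 and 0.828 in WT3, WT5, WT7 and WT8. KO4 and KO5 were above every WT library, whereas KO8 was below 3 of the 4, and the value of WT8 was 1 recovered read. The log2 fold change was 1.09 (SE 0.747, 95% interval -0.61 to 2.78, limma adjusted p = 0.849) with all libraries and 0.47 without WT8. Without KO5 it fell under the filter.

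The libraries with most Cck and Gip within each genotype were KO5 among Gsdme_KO and WT5 among WT. Gata4, a transcription factor of the proximal small intestine named here after its values were seen, had 56.2, 118, 59.7 and 25.6 normalized counts in KO4, KO5, KO7 and KO8, against 23.8, 108, 21.0 and 14.9 in WT3, WT5, WT7 and WT8. KO5 and WT5 were likewise its highest libraries, and KO8 and WT8 its lowest. Onecut2, another proximal factor also named after its values were seen, had 70.1, 122, 32.9 and 28.3 normalized counts in KO4, KO5, KO7 and KO8, against 36.3, 40.5, 16.6 and 17.4 in WT3, WT5, WT7 and WT8. Of the 8 proximal markers, 3 (Gata4, Adh6a and Onecut2) were highest in both KO5 and WT5 within their genotypes, and the other 5 were not. The whole list summed to 1419 to 2470 in Gsdme_KO (highest in KO7) and 1367 to 4101 in WT (highest in WT5). Whether the position of the sampled ileum differed between mice was not tested.

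**Figure D3:**
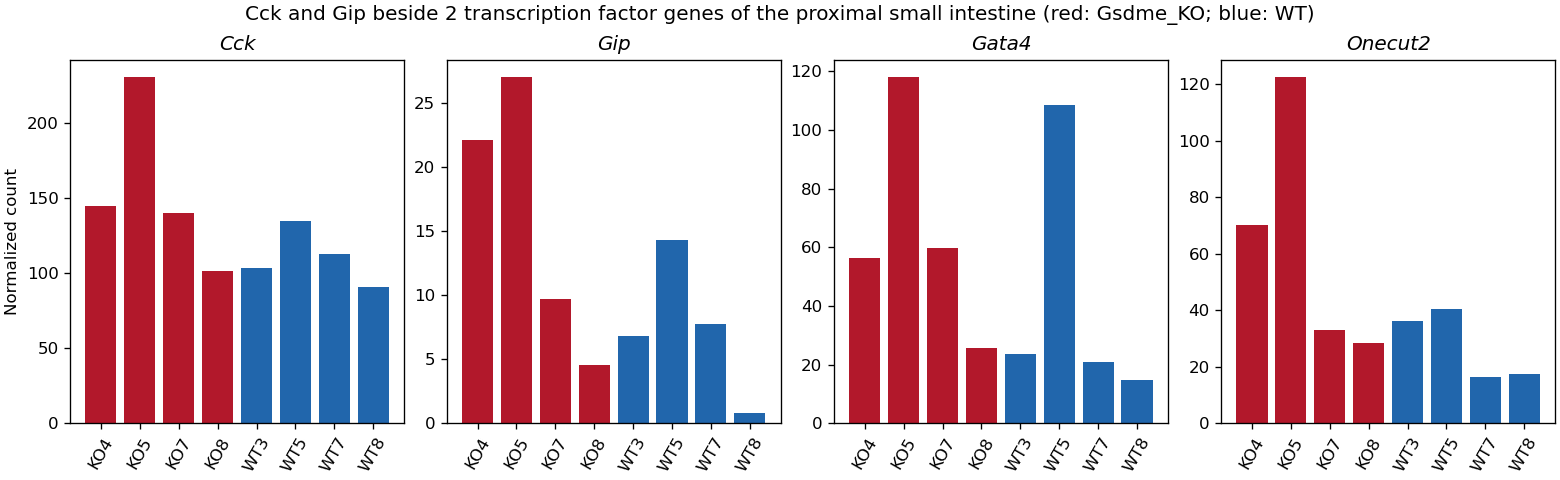
Normalized counts (y axes, from 0) of Cck, Gip, Gata4 and Onecut2 in the 4 Gsdme_KO libraries (red bars) and the 4 WT libraries (blue bars). KO5 has the tallest bar of its genotype in each panel and WT5 the tallest of its own.

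Sct had a lower and Sst a higher mean in Gsdme_KO than in WT, and their libraries overlapped between genotypes. Sct (ENSMUSG00000038580, chromosome 7, 141278330 to 141279133, minus strand) encodes secretin, which prompts bicarbonate release and is made by several maturing enteroendocrine subtypes. It had 249.8, 433, 507 and 437 normalized counts in KO4, KO5, KO7 and KO8, against 517, 505, 486 and 456 in WT3, WT5, WT7 and WT8. The WT libraries were tightly grouped (SD 5.44% of the mean), KO7 lay among them, and KO4 was lowest. The log2 fold change was -0.32 (SE 0.201, limma adjusted p = 0.849) with all libraries and -0.10 without KO4.

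Sst (ENSMUSG00000004366, chromosome 16, 23889573 to 23890958, minus strand) encodes somatostatin, the inhibitory hormone of D cells that enteric neurons also make. It had 587, 821, 609 and 587 normalized counts in KO4, KO5, KO7 and KO8, against 701, 603, 635 and 464 in WT3, WT5, WT7 and WT8. KO5 and WT8 were the extremes and the other 6 libraries were mixed. The log2 fold change was 0.12 (SE 0.157, 95% interval -0.24 to 0.47, limma adjusted p = 0.898) with all libraries and -0.00 without WT8. A list of 15 enteric neuron and glia markers summed to 2506 to 3126 in Gsdme_KO and 2364 to 3017 in WT. KO5 was highest of its genotype in both, whereas among WT the list was highest in WT5 and Sst in WT3. KO4 had the next highest Gsdme_KO sum (2723). Whether enteric neurons added to Sst was not tested.

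Tph1 (ENSMUSG00000040046, chromosome 7, 46644641 to 46672537, minus strand) encodes tryptophan hydroxylase 1, the rate-limiting enzyme of serotonin synthesis in enterochromaffin cells. It had 83.9, 68.3, 68.2 and 83.1 normalized counts in KO4, KO5, KO7 and KO8, against 98.7, 50.02, 75.2 and 137 in WT3, WT5, WT7 and WT8. All 4 Gsdme_KO libraries lay inside the WT range, whose ends were WT5 and WT8. Tph1 averaged 75.9 ± 8.77 in Gsdme_KO and 90.3 ± 37.1 in WT (SD, n = 4 each), a log2 fold change of -0.16 (SE 0.289, 95% interval -0.82 to 0.49, limma adjusted p = 0.922), which turned to 0.07 without WT8. Mast cells can also make serotonin through Tph1. Of 10 mast cell markers, 4 passed the filter, namely Kit, Hdc, Mcpt1 and Mcpt2. Cpa3 and Tpsab1, which were under it, ran from 0 to 9.13 normalized counts over all libraries. The list, most of whose level came from Kit, summed to 643 to 677 in Gsdme_KO and 548 to 717 in WT. Whether mast cells added to Tph1 was not tested.

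**Figure D4:**
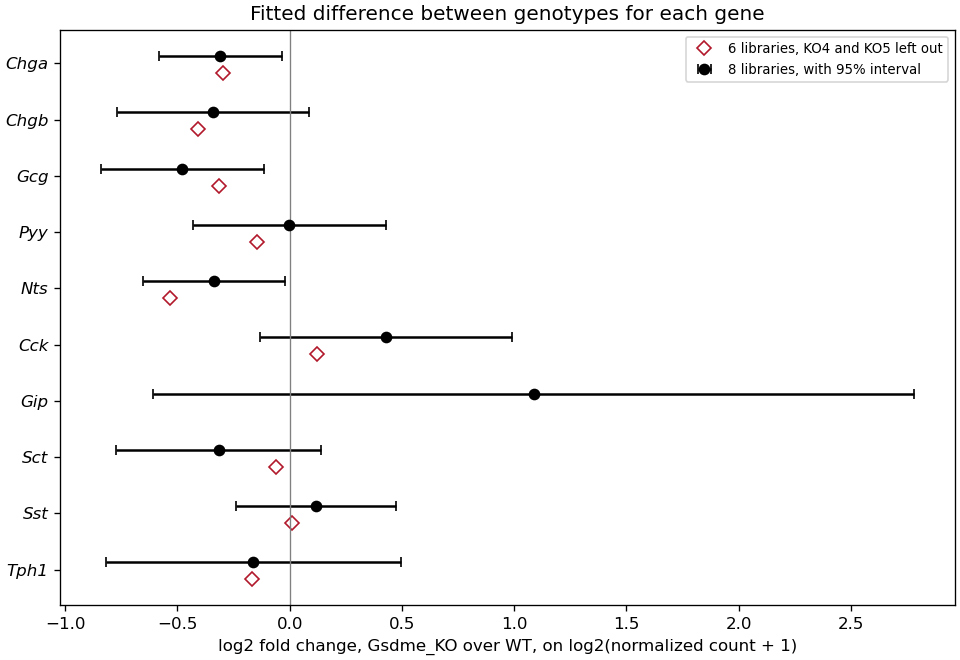
Log2 fold change of each gene (x axis, Gsdme_KO over WT) with its 95% interval from all 8 libraries (black) and its value with KO4 and KO5 left out (open red diamonds, absent for Gip, which then fell under the filter). The interval lies below 0 for Chga, Gcg and Nts, before any adjustment for the number of genes tested, and spans 0 for the other 7.

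Single libraries stood at the end of their genotype in many members, high in some and low in others. WT8 was the highest WT library for Chga, Chgb, Gcg, Pyy, Nts and Tph1 and the lowest for Cck, Sct, Gip and Sst. KO5 was the highest Gsdme_KO library for 7 members and the lowest for none, and KO4 was the lowest for Chga, Gcg, Pyy and Sct. The 10 members summed to 5463, 7066, 5981 and 5929.7 normalized counts in KO4, KO5, KO7 and KO8, against 7158, 6526, 7245 and 8900 in WT3, WT5, WT7 and WT8, where KO5 and WT5 overlapped. The median log2 fold change of the members was -0.09 without WT8, -0.16 without KO4 and -0.36 without KO5, against -0.24 with all libraries.

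For each member, the protein-coding genes most like it were sought by Pearson r of log2 values over the 8 libraries, among 14164 others. They are a description with no p, since the best of many over few libraries is high by choice. Nearest to Chga were Mpzl1 (r = 0.9844), Pdzd8 (r = 0.9839) and Slmap (r = 0.9776), and to Chgb Mipep (r = 0.9711), Vps39 (r = 0.9599) and Scyl3 (r = 0.9594). Nearest to Gcg were Cnot1 (r = 0.9785), Pcm1 (r = 0.9699) and Hjurp (r = 0.9647), to Nts Tmem231 (r = 0.9571), Dnm3 (r = 0.9432) and Pcdh20 (r = 0.9334), and to Tph1 Odf2 (r = 0.9549), Brpf1 (r = 0.9473) and Msh3 (r = 0.9459). Those nearest to Pyy were Cnn1 (r = 0.9633), Fcgbpl1 (r = 0.9590) and Actg2 (r = 0.9460), of which Cnn1 and Actg2 are smooth muscle genes that, like Pyy, were highest in KO5. Cnn1 had 2702, 5505, 2608 and 2693 normalized counts in KO4, KO5, KO7 and KO8, against 3175, 3151, 2832 and 3623 in WT3, WT5, WT7 and WT8. Those nearest to Cck were Mknk2 (r = 0.9895), Spns2 (r = 0.9659) and Stim2 (r = 0.9507), to Gip Serinc2 (r = 0.9845), Tbc1d10b (r = 0.9845) and Prg2 (r = 0.9754) and to Sst Mrpl17 (r = 0.9679), Ttl (r = 0.9438) and Arhgap27 (r = 0.9434). Sct was matched most closely, by Ptpn3 (r = 0.9972), Hepacam2 (r = 0.9948) and Gstt3 (r = 0.9932), all of which had their lowest value in KO4. No member was among the 3 nearest of another. Some pairs of members still rose together, as Chga with Chgb (r = 0.912) and Gcg (r = 0.899) and Cck with Gip (r = 0.853). Gcg and Gip ran opposite (r = -0.907), also without KO4 and KO5 (r = -0.841). Other pairs depended on these 2 libraries. Without KO4 and KO5, r moved from -0.01 to 0.458 for Gcg with Pyy and from -0.369 to 0.668 for Sct with Gip. The members are therefore not separate observations.

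Among other genes of the enteroendocrine system, 7 lists held 131 distinct symbols, of which 102 genes were tested. By limma, 0 were called in either direction, and 3 had higher and 3 lower means in Gsdme_KO at an unadjusted p under 0.05. The edgeR and DESeq2 tests called 0 as well, though DESeq2 gave some genes, such as Neurog3 and Rfx6, no adjusted p. In total 5.88% of the 102 genes had an unadjusted limma p under 0.05, against 4.38% of all genes tested. The median of each of the 7 lists changed sign under at least 1 of its 19 alternatives, and that of the 10 members lay between -0.36 and -0.09. The list medians were smaller in size to begin with (-0.12 to 0.19), so a change of sign came more easily. All alternatives drew on the same libraries. Within genotypes, the median log2 level of the members had an SD of 0.189 between libraries.

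Enteroendocrine transcription factors had 19 tested members of 25, with 8 positive and 11 negative log2 fold changes, a median of -0.12, 0 called by limma and 2 at an unadjusted limma p under 0.05, both lower in Gsdme_KO. The median was 0.02 with a mean of at least 50. Neurod1, which drives the endocrine programme after Neurog3, had 37.8, 41.3, 32.9 and 33.8 normalized counts in KO4, KO5, KO7 and KO8, against 57.9, 48.8, 39.8 and 67.9 in WT3, WT5, WT7 and WT8 (log2 fold change -0.52, SE 0.211, limma adjusted p = 0.849). KO5 alone exceeded a WT library, WT7. St18 had 15.1 ± 4.51 normalized counts in Gsdme_KO and 24.7 ± 6.05 in WT (SD, n = 4 each; limma adjusted p = 0.849). Neurog3, the gene that commits progenitors to this fate, was at 0, 7.51, 17.1 and 20.1 in KO4, KO5, KO7 and KO8 against 12.5, 3.57, 13.3 and 24.0 in WT3, WT5, WT7 and WT8, with the genotypes mixed. The 4 most abundant members, Sox4, Rfx7, Foxa1 and Atoh1, are also expressed outside endocrine cells and had log2 fold changes from -0.10 (Atoh1) to 0.20 (Sox4).

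Granins and other granule genes had 20 tested members of 20, 10 positive and 10 negative, with a median log2 fold change of 0.00 that lay between -0.07 and 0.08 with 1 library left out and was negative without KO5, WT3 or WT7. Of these, 0 were called by limma, and 1 had an unadjusted limma p under 0.05. Syt13, a synaptotagmin of endocrine progenitors, stood at 0.31 on the log2 scale with an SE of 0.153 (limma adjusted p = 0.849). Abundant members were Cpe and Pam, which trim and amidate prohormones, and the granin gene Scg2, with log2 fold changes of -0.09, 0.16 and -0.11.

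Serotonin handling genes had 16 tested members of 22, 8 positive and 8 negative, with a median log2 fold change of 0.02 and 0 called by limma. With 1 library left out the median lay between -0.07 and 0.10, and it was negative without KO7, KO8 or WT3. Maoa, which degrades serotonin, had 977 and 1654 normalized counts in KO4 and KO5 and 13444 and 9747 in KO7 and KO8, against 5968 to 14235 in WT (log2 fold change -1.15, SE 0.807, limma adjusted p = 0.849). Ddc, which completes serotonin synthesis, had 172 and 524 in KO4 and KO5 and 1118 and 967 in KO7 and KO8, against 642 to 1240.2 in WT. Slc6a4, the serotonin transporter of enterocytes, had 303 and 396 in KO4 and KO5 and 832 and 589.6 in KO7 and KO8, against 439 to 622 in WT. In these 3 genes KO4 and KO5 lay below every WT library, as did the summed mature enterocyte markers, and Ddc and Slc6a4 are named after their values were seen. Slc18a1, the vesicular monoamine transporter of enterochromaffin cells, also named after its values were seen, averaged 324 ± 21.7 in Gsdme_KO and 307 ± 57.6 in WT (SD, n = 4 each; limma adjusted p = 0.912). The serotonin receptor gene Htr2b was the sole member at an unadjusted limma p under 0.05, with 102, 96.9, 64.6 and 92.2 normalized counts in KO4, KO5, KO7 and KO8, against 69.2, 67.9, 34.3 and 35.6 in WT3, WT5, WT7 and WT8 (log2 fold change 0.83, SE 0.29, limma adjusted p = 0.849). The remaining most abundant members were Qdpr, Gch1 and Spr, enzymes of the tetrahydrobiopterin cofactor, with log2 fold changes of -0.43, 0.32 and -0.02.

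Hormone processing and clearance peptidases had 15 tested members of 15, 6 positive and 9 negative, with a median log2 fold change of -0.09, 0 called by limma and 0 at an unadjusted limma p under 0.05. The median was 0.0022 without KO4. Dpp4, the brush border peptidase that inactivates GLP-1 and GIP, had 5969 and 5306 normalized counts in KO4 and KO5 and 15239 and 12315 in KO7 and KO8, against 11786 to 15432 in WT (log2 fold change -0.65, SE 0.328, limma adjusted p = 0.849). Enpep had 6297 and 6207 in KO4 and KO5 and 37322 and 27685 in KO7 and KO8, against 24135 to 39569.6 in WT. Mme, or neprilysin, had 718 and 765 in KO4 and KO5 and 6633 and 4471 in KO7 and KO8, against 3093 to 6078 in WT. For these 3 membrane enzymes of the enterocyte, KO4 and KO5 were again the lowest libraries. Ace, the other abundant member, had a log2 fold change of -0.25 (limma adjusted p = 0.887).

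Hormone receptors had 10 tested members of 19, 4 positive and 6 negative, with a median log2 fold change of -0.07, 0 called by limma and 0 at an unadjusted limma p under 0.05. The median was 0.05 without WT8. Sort1, a sorting receptor that binds neurotensin, was the most abundant, at 3558 ± 860.2 normalized counts in Gsdme_KO and 4369 ± 261 in WT (SD, n = 4 each). Glp2r, Npy4r and Glp1r, receptors of GLP-2, pancreatic polypeptide and GLP-1, had log2 fold changes of -0.11, -0.34 and -0.03. Sstr1, a somatostatin receptor, stood at 0.68 on the log2 scale with an SE of 0.414 (limma adjusted p = 0.849).

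Nutrient and irritant sensors had 17 tested members of 21 found in the table, 10 positive and 7 negative, with a median log2 fold change of 0.19, 0 called by limma, and 1 higher and 1 lower at an unadjusted limma p under 0.05. The median was 0.03 without KO4, 0.04 without KO5 and -0.08 with a mean of at least 50. Gpbar1, the bile acid receptor of L cells, had 14.7, 18.02, 14.6 and 11.9 normalized counts in KO4, KO5, KO7 and KO8, against 7.94, 7.15, 8.85 and 11.6 in WT3, WT5, WT7 and WT8, all low (log2 fold change 0.68, SE 0.28, limma adjusted p = 0.849). Trpa1, the irritant channel of enterochromaffin cells, had 36.9, 24.0, 28.0 and 20.1 in KO4, KO5, KO7 and KO8, against 34.0, 48.8, 35.4 and 78.6 in WT3, WT5, WT7 and WT8 (log2 fold change -0.78, SE 0.316, limma adjusted p = 0.849). KO4 alone exceeded 2 WT libraries. The most abundant members were the glucose transporter gene Slc5a1, Adgrd1, Lpar5 and the fatty acid receptor gene Ffar4, with log2 fold changes of -0.31, -0.37, -0.25 and 0.09.

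Other gut peptides had 9 tested members of 12 found in the table, 5 positive and 4 negative, with a median log2 fold change of 0.13, 0 called by limma and 0 at an unadjusted limma p under 0.05. The median was -0.15 without KO5 and -0.02 without WT7. Guca2a and Guca2b, which encode guanylin and uroguanylin, were the most abundant, at 10352 ± 2435 and 3589 ± 1614 normalized counts in Gsdme_KO and 10958 ± 1409 and 4958 ± 947 in WT (SD, n = 4 each). Insl5, an L cell hormone of the colon, had 7.37, 17.3, 46.3 and 20.1 in KO4, KO5, KO7 and KO8, against 39.7, 29.8, 31.0 and 63.7 in WT3, WT5, WT7 and WT8 (log2 fold change -1.02, SE 0.503, limma adjusted p = 0.849). KO7 alone of the Gsdme_KO libraries lay among the WT libraries. Tac1, the substance P precursor of enterochromaffin cells and neurons, had 1059 in KO4 and 187 to 319 in the other 3 Gsdme_KO libraries, against 158 to 337 in WT. Vip, a neuronal peptide gene, and Adm, adrenomedullin, had log2 fold changes of 0.18 and 0.79.

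**Figure D5:**
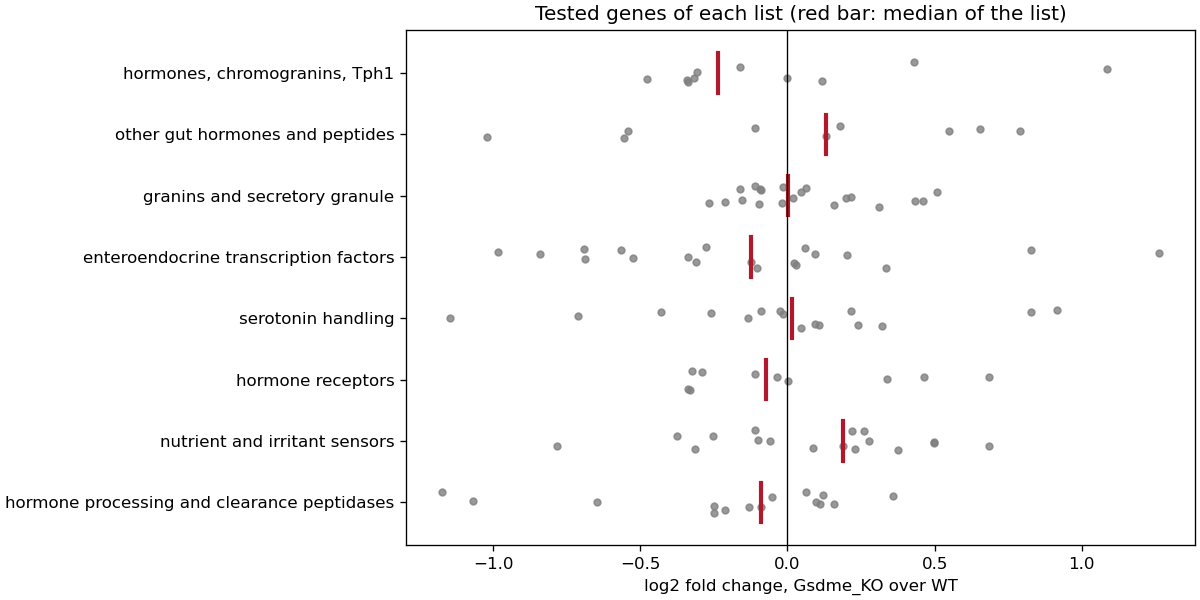
Log2 fold change (x axis, Gsdme_KO over WT) of every tested gene of the 10-gene set and of the 7 lists (grey points), with each list's median as a red bar. The medians run from -0.24 for the 10 genes to 0.19 for nutrient and irritant sensors (0.03 without KO4), and each list has genes on both sides of 0.

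The source of the hormone transcripts was checked against markers of other tissues. Of 13 pancreas markers, 8 were at 0 in every library, among them Ins1, Ins2, Prss1 and Cpa1, and Cela1, which the intestine also expresses, made up most of the rest. No insulin transcript was counted beside the islet hormones Gcg and Sst. The 11 enteroendocrine markers were all detected, and their sum ran from 2419 to 3056 normalized counts in Gsdme_KO and from 2593 to 4191 in WT, with Chga and Chgb included.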

How the data were processed

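The values deposited by the authors are normalized signal per gene, reads over a library size factor (0.821 to 1.33). HISAT2, SAMtools, featureCounts, Subread, DESeq2 and the build GRCm38 are named, per the submitters' processing notes, and the sources used here give neither versions nor the strand setting. All values (100%) came out as whole reads within 0.01 of a read. Column headers give the genotype, and their numbers are not the label numbers. The labels number mice, and p-values measure the spread between these libraries.

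Genotypes were compared by limma-trend (limma 3.58.1, R 4.3.3) on log2(normalized count + 1) in 16352 genes, those averaging 10 or more over 8 libraries, Gsdme_KO against WT, with no covariate, and Benjamini-Hochberg adjustment over all of them at 0.05. Recovered reads were tested with edgeR 4.0.16 (quasi-likelihood) and DESeq2 1.42.0 (Wald). Exon lengths are unions over GENCODE M21 transcripts. The fit was first run on simulated counts with larger changes than those of the members other than Gip. That run does not show whether changes as small as theirs would be called. The alternatives were pseudocounts of 0.5 and 5, no filter, a mean of at least 50, TMM factors, scaling to pan-epithelial markers, array weights, both count tests, each library left out, KO4 and KO5 left out together, a replicate block and an adjusted p under 0.1.

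The members and lists were chosen with earlier results of these data known. Named were the 10 members, and of each list any called gene or else the 4 of highest mean and the 2 of smallest unadjusted p, and for each member its 3 nearest protein-coding genes. A gene that this rule names is not reported here. The symbols Mln, Olfr78, Olfr558 and Mettl7b had no match. Gip had as few as 1 read in a library.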

Additional observations from a re-analysis of the deposited data

Results flagged for a closer look

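A library stood far from the other 3 of its genotype in 2 of the 20 groups examined, by the gap to its nearest neighbour as a share of the range, a rule by which chance marks about 1 in 20 groups. Pyy in KO5 had 687 normalized counts, above the next Gsdme_KO library at 422. Sst in KO5 had 821 normalized counts, above the next Gsdme_KO library at 609. The summed B cell and follicle markers were 6062 in KO5 and 10541 in KO4, and whether they bear on either gene was not tested.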

How the results depend on the processing

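No member and no gene of the 7 lists was called under any alternative, and the sign of the log2 fold change of Chga, Chgb, Cck, Gcg, Nts, Sct and Gip was the same in every alternative where they were tested. Pyy, at -0.001 with all libraries, turned to 0.0049 (TMM factors), 0.047 (pan-epithelial scaling), 0.037 (edgeR), 0.038 (DESeq2), 0.0034 (array weights) and 0.074 (replicate block), and lay between -0.19 and 0.095 with 1 library left out. Sst turned to -0.016 with array weights. With 1 library left out, Tph1 lay between -0.41 and 0.069 and Sst between -0.0017 and 0.197. Over all genes, 1 was called higher and 0 lower. Leaving out 1 library gave 0 to 1 higher, pan-epithelial scaling 0, leaving out KO4 and KO5 together 0 higher and 1 lower, and DESeq2 8 higher and 1 lower.

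With a replicate block on the header numbers that both genotypes share (5, 7 and 8), 0 genes were called higher. The deviations of same-numbered libraries correlated at 0.01, 0.04 and -0.21, and those of differently numbered ones at -0.30 to 0.34. So few pairs cannot show whether the shared numbers pair the libraries. Scaling to pan-epithelial markers moved the unadjusted limma p of Gcg to 0.0516, of Chga to 0.126 and of Nts to 0.124. The number of libraries and, for Gip, depth limit these values.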
